A study of Rattus norvegicus with 196 samples.

Results

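The habenula (HB) and the mediodorsal thalamus (MDT, spelled out by the study as dorsomedial thalamus) were compared in control rats by bulk RNA-seq. The comparison took the 8 Sham libraries of these regions, 4 of HB and 4 of MDT, out of 196 libraries of 25 brain regions in all. Libraries were chosen by the region and treatment in their labels and were paired by replicate number (1, 3, 4 and 5). The series as a whole profiled Sham rats and rats given fluoxetine (FT), an inhibitor of serotonin reuptake. All rats were male Long-Evans animals, 2 months old when treatment began. Sham rats drank water for 6 weeks, and FT rats received fluoxetine at 18 mg/kg in the drinking water for 6 weeks. Each library pooled tissue punches from 10 animals, so that the spread between libraries is a spread between pools and not between animals. Sham and FT pools came from different animals. The unit counted is an Ensembl transcript.

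The habenula lies on the midline above the thalamus, beside the third ventricle and its choroid plexus. Its medial part holds cholinergic neurons that project to the interpeduncular nucleus, and its lateral part holds glutamatergic neurons that act on midbrain monoamine centres. The mediodorsal thalamus holds glutamatergic relay neurons that exchange signals with the prefrontal cortex. The transcription factor Tcf7l2 takes part in the development of both structures, and the vesicular glutamate transporter Slc17a6 loads glutamate into vesicles in most neurons of both.

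Libraries differed in depth and in composition by replicate number. Total counts on transcripts were 5286026 to 15618793 in Sham HB and 6144105 to 20144420 in Sham MDT, with the lowest total of each region in replicate 3. The 50 most abundant transcripts took 67.6% of the counts in HB replicate 3 and 56.3% in MDT replicate 3, against 26.8 to 41.8% in the other 6 libraries. Replicate 3 therefore stood apart in both regions, and counts without it are given beside the main result. Reads outside annotated features made up 46.7% in HB and 30.1% in MDT of replicate 3, and 48.3% and 33.0% in replicate 4, while the shares were 23.7% and 23.4% in replicate 1 and 47.5% and 45.0% in replicate 5. The part of this difference in the results was not tested.

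More than 1 in 10 transcripts differed between HB and MDT. Of 13790 transcripts tested, 1616 (11.7%) were called, with an absolute log2 fold change (log2FC, HB minus MDT) of at least 0.32 and an adjusted p of at most 0.1 in edgeR's quasi-likelihood test with the replicate number as a block. A total of 852 transcripts (6.18%) were higher in HB and 764 (5.54%) were higher in MDT. Large differences were mostly on the HB side, as 697 HB-higher and 261 MDT-higher calls reached an absolute log2FC of 1, 259 and 34 reached 2, and 80 and 6 reached 3. In 472 transcripts (3.42%) every HB library lay above every MDT library, and in 387 (2.81%) every MDT library lay above every HB library. Without replicate 3, 440 transcripts were higher in HB and 198 in MDT, of which 617 were among the 1616. Without the block, 120 transcripts were called (0.87%), 92 higher in HB and 28 higher in MDT, all of them among the 1616. Levels below are library-size scaled counts (CPM) after TMM normalisation. In bulk tissue, fewer cells of a type and less RNA per cell cannot be told apart.

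**Figure D1:**
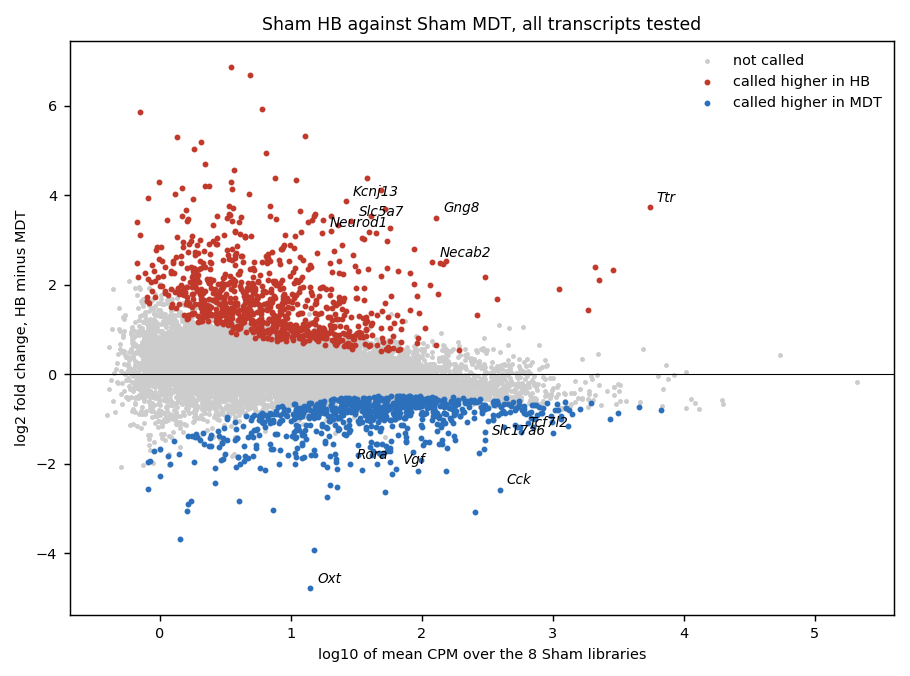
Each point is one of the 13790 transcripts tested, with the log10 of its mean CPM over the 8 Sham libraries on the x axis and its log2FC (HB minus MDT) on the y axis. Red points are the 852 called higher in HB, blue points the 764 called higher in MDT and grey points were not called. HB-higher calls reach log2FC values above 6, while few MDT-higher calls pass -3.

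Gene names came from a table of the study that holds 1832 usable names for the 29188 transcripts of the files. Of 1818 named transcripts that were tested, 235 were called (12.9%), 107 higher in HB and 128 higher in MDT. That table lists transcripts that the study had found to respond to fluoxetine in at least a pair of regions, so that many well-known habenular and thalamic markers had no identifier and were not analysed here. The results that follow cover 46 named genes and 4 transcripts with no name.

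The medial habenula marker list had 24 genes, of which 5 had an identifier and were tested. Of these, 3 were called higher in HB, none was called higher in MDT, and the median log2FC was 1.28, against 0.03 over all 13790 transcripts. Slc5a7, the choline transporter that supplies cholinergic terminals, Gng8, a G protein gamma subunit, and Kctd8, an auxiliary subunit of GABA-B receptors, were the called members. Kctd8 missed the threshold without replicate 1, 3 or 5, which left 2 of the 5 called, and without the block. Without replicate 4, 4 of the 5 were called higher in HB.

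Gng8 had 256, 516.5, 74.9 and 112 CPM in HB replicates 1, 3, 4 and 5, and 20.9, 15.3, 9.36 and 19.5 CPM in the MDT libraries in the same order. The lowest HB library lay above the highest MDT library. The log2FC was 3.50 ± 0.38 (SE, n = 4 pairs, edgeR adjusted p = 0.00103), an 11.3-fold difference. Slc5a7 had 90.2, 44.9, 20.4 and 56.7 CPM in HB and 9.03, 5.64, 3.40 and 2.37 CPM in MDT. Its groups did not overlap either, and each HB library had at least 20 CPM. The difference was 10.7-fold (log2FC 3.42 ± 0.32, SE, edgeR adjusted p = 0.000552). Kctd8 was lower in level and in contrast, with 3.99 to 8.18 CPM in HB and 1.57 to 3.34 CPM in MDT and a log2FC of 1.28 ± 0.32 (SE, edgeR adjusted p = 0.0448).

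The 2 other members did not pass. Fxyd7, a regulator of the sodium pump, had 7.33 to 44.5 CPM in HB and 5.41 to 80.5 CPM in MDT (log2FC -0.18 ± 0.25, SE), with the highest value of each region in replicate 3. Kcng4, a modulatory potassium channel subunit, had 50.1 to 153.7 CPM in HB and 33.0 to 97.7 CPM in MDT (log2FC 0.48 ± 0.21, SE), and was higher in HB in 3 of 4 pairs.

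The lateral habenula list had 12 genes, of which 2 had an identifier, and neither was called higher in HB. Vgf, the precursor of a group of secreted neuropeptides, was listed as a lateral habenula marker but was higher in MDT. Its levels were 28.3, 29.9, 19.4 and 11.1 CPM in HB and 137.2, 149.4, 99.9 and 32.2 CPM in MDT. The lowest MDT library, replicate 5, lay just above the highest HB library, and the log2FC was -2.12 ± 0.19 (SE, edgeR adjusted p = 0.00045). Cartpt, the precursor of the CART peptides, had 5.28 to 46.4 CPM in HB and 6.41 to 31.3 CPM in MDT, and the groups overlapped (log2FC -0.24 ± 0.35, SE). The remaining lateral habenula markers were not analysed here.

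All 6 thalamic relay markers with an identifier, out of 26 listed, were called, 5 of them higher in MDT and 1 higher in HB. The list median was -1.64. Tcf7l2 is a nuclear effector of Wnt signalling, Rora is a nuclear receptor, Plekhg1 is an exchange factor for small GTPases, Cbln1 is a secreted organiser of synapses and Necab1 is a neuronal calcium-binding protein. Necab2, a relative of Necab1, was the member that went the other way. Without replicate 3, Necab1 missed the threshold and the other 4 were still called higher in MDT. Without the block, Rora and Necab2 were still called, while Tcf7l2, Plekhg1, Cbln1 and Necab1 missed the threshold.

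Tcf7l2 had 349.5, 374.8, 264.3 and 306.7 CPM in HB and 845.5, 1182, 794.9 and 484 CPM in MDT (replicates 1, 3, 4 and 5). The lowest of the 8 libraries had 264.3 CPM, and the groups did not overlap. MDT was 2.45-fold higher (log2FC -1.29 ± 0.22, SE, edgeR adjusted p = 0.00849). Rora had 5.38, 10.5, 14.3 and 15.4 CPM in HB and 32.6, 58.6, 47.3 and 41.8 CPM in MDT. Every MDT library was above every HB library, by 4.06-fold in the fit (log2FC -2.02 ± 0.24, SE, edgeR adjusted p = 0.0014). Cbln1 ran from 16.6 to 38.7 CPM in HB and from 45.4 to 127 CPM in MDT (log2FC -1.61 ± 0.21, SE, edgeR adjusted p = 0.00274). Plekhg1 was higher in MDT in each pair, yet its groups touched, since HB replicate 5 had 29.6 CPM and MDT replicate 4 had 29.5 CPM (log2FC -1.80 ± 0.28, SE, edgeR adjusted p = 0.00564). Necab1 rested on few reads in HB, 16 and 14 in replicates 1 and 3, and had a log2FC of -1.66 ± 0.35 (SE, edgeR adjusted p = 0.0234). Necab2 had 332.3, 249.5, 70.7 and 179.1 CPM in HB against 46.6, 41.0, 21.2 and 25.7 CPM in MDT. Its groups were fully apart, with HB 5.67-fold higher (log2FC 2.50 ± 0.22, SE, edgeR adjusted p = 0.000435).

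**Figure D2:**
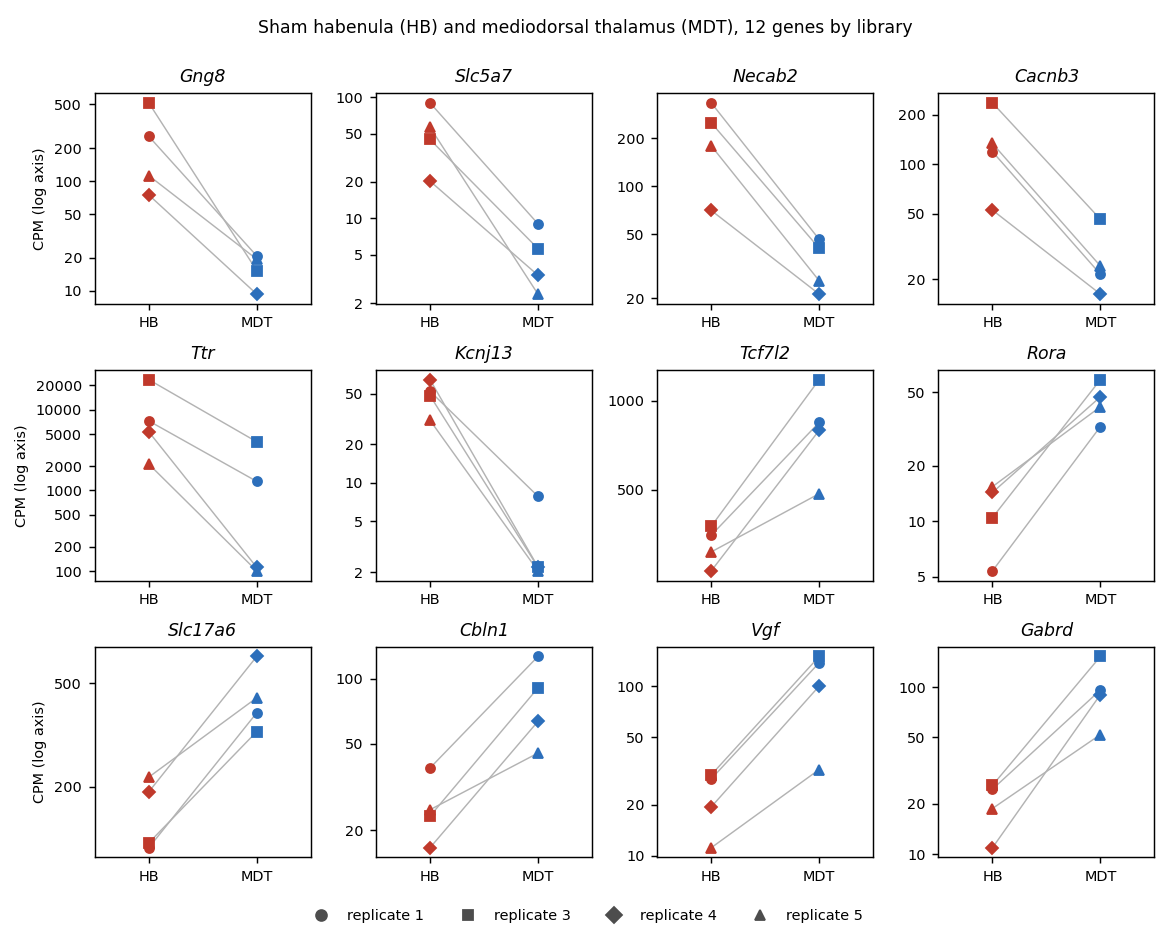
CPM (log axis) of 12 genes in the Sham HB (red) and Sham MDT (blue) libraries, with a grey line joining the libraries of a replicate number and a marker shape for each number. Lines fall from HB to MDT for Gng8, Slc5a7, Necab2, Cacnb3, Ttr and Kcnj13 and rise for Tcf7l2, Rora, Slc17a6, Cbln1, Vgf and Gabrd in all 4 pairs, and the 2 groups overlap for Ttr.

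The choroid plexus markers moved with the HB libraries. Of 13 genes in that list, 4 had an identifier, and all 4 were called higher in HB, with a median log2FC of 3.63. Their summed level was 7756, 24110, 5541 and 2229 CPM in HB replicates 1, 3, 4 and 5, and 1373, 4087, 132 and 119 CPM in MDT. None of the 4 was at 0 in any Sham library. Ttr made up most of this sum, in which MDT replicates 1 and 3 and all HB libraries lay above MDT replicates 4 and 5. Sostdc1 and Igfbp2 had the same split. Kcnj13 did not, with 2.19 CPM in MDT replicate 3 and 2.20 and 2.05 CPM in MDT replicates 4 and 5. Ttr, the thyroid hormone carrier secreted by choroid plexus, had 7267, 23560, 5333 and 2125 CPM in HB and 1296, 4006, 112 and 101 CPM in MDT. HB replicate 5 was below MDT replicate 3, so that the groups overlapped, while HB was higher in each pair (log2FC 3.73 ± 0.56, SE, edgeR adjusted p = 0.00463). Kcnj13, an inward rectifier potassium channel of epithelia, had 31.0 to 64.3 CPM in HB and 2.05 to 7.86 CPM in MDT, with no overlap (log2FC 3.87 ± 0.34, SE, edgeR adjusted p = 0.000435). Sostdc1, a secreted antagonist of BMP and Wnt ligands, had 25.1 to 57.3 CPM in HB and 0.64 to 13.9 CPM in MDT (log2FC 3.52 ± 0.45, SE). Igfbp2, which binds insulin-like growth factors, had 47.4 to 458.9 CPM in HB and 14.8 to 75.5 CPM in MDT (log2FC 2.46 ± 0.23, SE).

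Ependymal markers showed the same direction at low levels. Mlf1 and Tekt1, the latter a protein of cilia, were the 2 of 12 with an identifier, and both were called higher in HB. Their summed level was 18.8 to 23.9 CPM in HB and at most 10.96 CPM in MDT, with no overlap. The part of choroid plexus and ependymal RNA in the other HB-higher differences was not tested. The 4 choroid plexus members were called higher in HB whichever replicate was left out, while Tekt1 missed the threshold without replicate 1 or 5. Without the block, Kcnj13 was still called, while Ttr, Sostdc1, Igfbp2, Mlf1 and Tekt1 missed the threshold.

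No marker of other glia was called. This held for all of 4 astrocyte, 7 oligodendrocyte, 2 oligodendrocyte precursor and 3 microglia members, with list medians between -0.22 and 0.09. Over all transcripts tested the called share was 11.7%, and the difference of these small lists from it was not tested. Without replicate 4, 2 of the 4 astrocyte members were called higher in MDT and their median was -0.53. Summed CPM ran from 238.5 to 319 in HB and 278.6 to 401.5 in MDT for astrocytes, and from 436.1 to 709.1 and 456.6 to 877.9 for oligodendrocytes. Both of these sums were lower in HB in each pair, although the ranges overlapped. For microglia the sums were 71.5 to 148.3 in HB and 78.4 to 126.7 in MDT. No endothelial marker had an identifier. The 3 hippocampal markers were split, as Neurod1, a proneural transcription factor, was called higher in HB and C1ql3, a secreted C1q-like protein of synapses, higher in MDT. C1ql3 missed the threshold without replicate 1 or 3. Wfs1 was not called (log2FC 1.33 ± 0.43, SE), and without replicate 4 the list had 2 calls higher in HB. Neurod1 had 28.4, 37.8, 14.6 and 43.7 CPM in HB and 3.34, 6.58, 1.84 and 3.05 CPM in MDT, with no overlap (log2FC 3.16 ± 0.26, SE, edgeR adjusted p = 0.000343). The summed level of these 3 markers was 33.4 to 95.4 CPM in HB and 19.9 to 76.1 CPM in MDT, higher in HB in each pair. With all Sham libraries normalised together, Neurod1 was highest in the periaqueductal gray (mean 106.9 CPM). Its mean was 55.9 CPM in the dorsal dentate gyrus and 30.1 CPM in HB. Hpca and Ryr1, also called higher in HB, were highest in the dorsal dentate gyrus. Their means were 1187 and 17.6 CPM there and 250 and 3.35 CPM in HB. The other named genes called higher in HB were highest in other regions. The part of hippocampal RNA in the HB-higher differences was not tested.

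**Figure D3:**
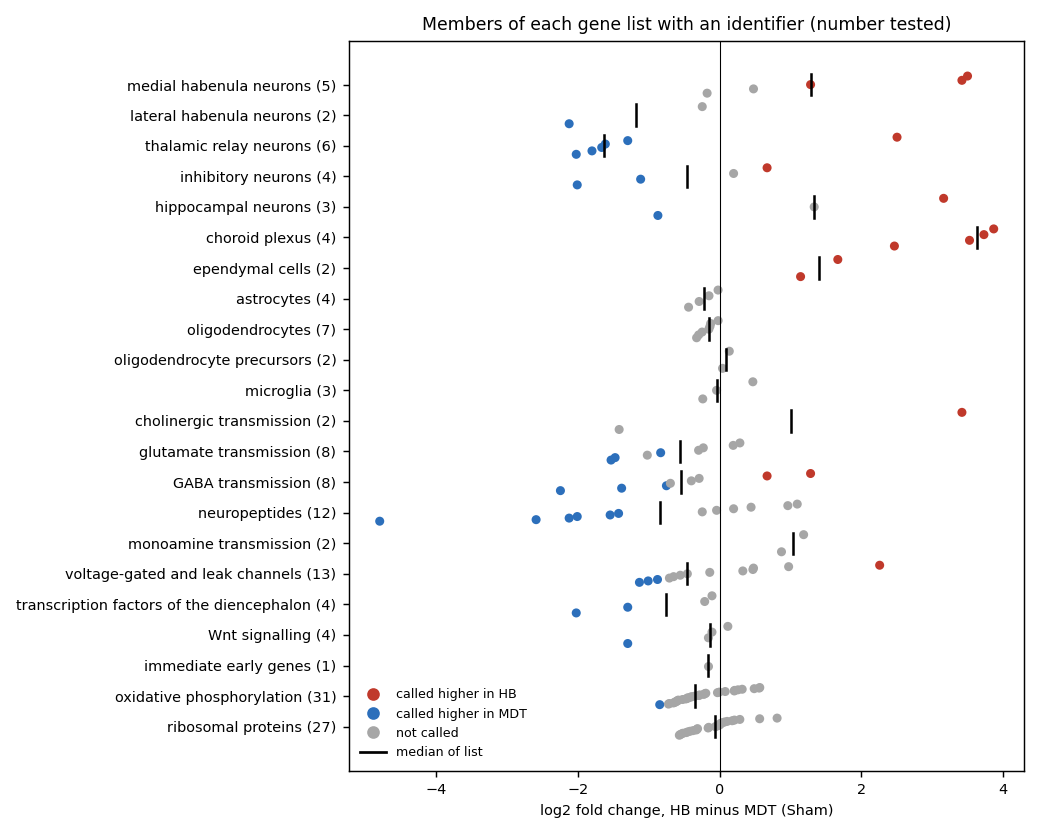
Each row is a gene list, with the number of tested members in brackets, and each point is the log2FC (HB minus MDT, Sham) of a member. Red members were called higher in HB, blue members were called higher in MDT, grey members were not called, and the black bar is the list median. Choroid plexus members lie between 2.46 and 3.87, while 5 of 6 thalamic relay members lie between -2.02 and -1.29.

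In the cholinergic list, which had 2 tested members, Slc5a7 was called higher in HB, and Chrnb2, a nicotinic receptor subunit, was not called, although it was lower in HB in each pair (log2FC -1.42 ± 0.46, SE). Of 8 glutamate genes tested, 3 were called, each higher in MDT (Slc17a6, Grm4 and Grin2c). Slc17a6 had 116.5, 121.6, 191 and 217.6 CPM in HB and 384.6, 325.7, 633.4 and 439.4 CPM in MDT. MDT was 2.78-fold higher with no overlap, and both regions were above 100 CPM in every library (log2FC -1.47 ± 0.19, SE, edgeR adjusted p = 0.00256). Grm4, a presynaptic metabotropic glutamate receptor, had 1.51 to 11.2 CPM in HB and 5.598 to 76.4 CPM in MDT, with the highest MDT value in replicate 3, and was not called without that replicate. Grin2c, an NMDA receptor subunit, ran from 9.86 to 17.9 CPM in HB and from 18.5 to 28.1 CPM in MDT, with a narrow gap between the groups (log2FC -0.83 ± 0.18, SE, edgeR adjusted p = 0.0227). It missed the threshold without replicate 1, 3 or 5. Of the 8 glutamate genes, 1 was thus called without replicate 3, 2 without replicate 1 or 5 and 4 without replicate 4, each higher in MDT.

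Of 8 GABA genes tested, 2 were called higher in HB (Kctd8 and Gad2) and 3 higher in MDT (Gabrd, Gabrb2 and Gabrb1). Gabrd, the delta subunit of extrasynaptic GABA-A receptors, had 24.5, 25.8, 10.9 and 18.8 CPM in HB and 96.1, 152.5, 90.2 and 52.0 CPM in MDT. The groups did not overlap, and MDT was 4.74-fold higher (log2FC -2.24 ± 0.26, SE, edgeR adjusted p = 0.00133). Gabrb2, a beta subunit, had 1.70 to 10.7 CPM in HB and 9.14 to 21.2 CPM in MDT (log2FC -1.38 ± 0.36, SE, edgeR adjusted p = 0.0546). Gad2, an enzyme of GABA synthesis, had 18.3 to 52.2 CPM in HB and 15.1 to 24.6 CPM in MDT and passed narrowly (log2FC 0.67 ± 0.21, SE, edgeR adjusted p = 0.0954). Gad2 missed the threshold whichever replicate was left out, and Gabrb2 without replicate 1, 3 or 5. With any 1 of these 3 replicates left out the list had 1 call, higher in MDT, and without replicate 4 it had 1 call higher in HB and 6 higher in MDT. The inhibitory neuron list was split. Of its 4 tested members, 1 was called higher in HB (Gad2), 2 higher in MDT (Pvalb and Vip) and 1 was not called. Pvalb, a calcium buffer of fast-spiking neurons, was higher in MDT in each pair, with 33.0 to 122.3 CPM in HB and 46.0 to 427.5 CPM in MDT. Its log2FC was -1.11 ± 0.22 (SE, edgeR adjusted p = 0.0167), and it was not called without replicate 3.

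Of 12 neuropeptide precursors tested, 6 were called higher in MDT (Oxt, Cck, Vgf, Vip, Avp and Gal), none higher in HB and 6 were not called, and the median log2FC was -0.83. Without replicate 4, 1 was called higher in HB and 6 higher in MDT. Without replicate 3 or 5, 4 were called higher in MDT, and without replicate 5 the median of the 11 left to test was 0.058. Cck, the cholecystokinin precursor, had 35.4, 168.3, 19.1 and 19.9 CPM in HB and 135.8, 2567, 125.6 and 70.5 CPM in MDT. Replicate 3 was the highest of each region and its HB value lay above 3 MDT values, yet MDT was higher in each pair (log2FC -2.59 ± 0.35, SE, edgeR adjusted p = 0.00285). Vip, the precursor of vasoactive intestinal peptide, had 2.52 to 9.58 CPM in HB and 13.8 to 53.5 CPM in MDT, with no overlap (log2FC -2.01 ± 0.29, SE, edgeR adjusted p = 0.0038). Oxt, the oxytocin precursor, had 4, 5, 1 and 1 reads in HB and 24, 334, 41 and 27 reads in MDT. The MDT value of replicate 3, 104.6 CPM, was far above the other MDT values of 0.97 to 3.76 CPM (log2FC -4.79 ± 0.51, SE, edgeR adjusted p = 0.000983). Avp, the vasopressin precursor, had 8, 15, 1 and 6 reads in HB and 15, 49, 8 and 19 reads in MDT (log2FC -1.54 ± 0.46, SE, edgeR adjusted p = 0.08), and was not called without replicate 1 or 3. Hypothalamic nuclei make both hormones. With all Sham libraries normalised together, Oxt had a mean of 26.6 CPM in MDT and of 712.7 CPM in the medial preoptic area, where single libraries ran from 3.92 to 2830 CPM.

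Of 13 voltage-gated and leak channel genes tested, 1 was called higher in HB and 3 higher in MDT, and without replicate 4 these counts were 3 and 6. Cacnb3, a calcium channel beta subunit, had 119.5, 236.8, 52.7 and 134 CPM in HB and 21.5, 46.4, 16.2 and 24.1 CPM in MDT. HB was 4.78-fold higher with no overlap (log2FC 2.26 ± 0.19, SE, edgeR adjusted p = 0.000346). Its relative Cacnb4 went the other way, with 57.2, 30.3, 110.1 and 81.4 CPM in HB and 126.6, 82.4, 166.1 and 152.5 CPM in MDT. The groups overlapped, and MDT was higher in each pair (log2FC -1.01 ± 0.18, SE, edgeR adjusted p = 0.0108). Hcn2, a pacemaker channel, and Kcnab1, a potassium channel beta subunit, were higher in MDT by log2FC values of -1.13 ± 0.18 and -0.88 ± 0.18 (SE). Hcn2 was highest in replicate 3 of each region, and its groups overlapped although MDT was higher in each pair.

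The remaining large HB-higher differences included genes of signalling and of the extracellular matrix. Pde2a, a phosphodiesterase stimulated by cGMP, had 71.5 to 333.4 CPM in HB and 14.0 to 51.1 CPM in MDT, with no overlap (log2FC 2.49 ± 0.17, SE, edgeR adjusted p = 0.000212). Hpca, a calcium sensor named for the hippocampus, had 30.8 to 451.1 CPM in HB and 1.65 to 70.2 CPM in MDT, and the groups overlapped (log2FC 2.52 ± 0.42, SE). Sncg, gamma-synuclein, had 17.5 to 161.6 CPM in HB and 2.48 to 26.0 CPM in MDT, and replicate 3 was the highest of each region. Ogn, a small proteoglycan, had 14.7 to 63.6 CPM in HB and 3.27 to 8.86 CPM in MDT, without overlap. Aebp1, a matrix protein, ran from 17.8 to 167.2 CPM in HB and from 1.90 to 21.3 CPM in MDT, and Mfrp, a membrane protein related to frizzled receptors, from 37.7 to 118.3 and from 0.83 to 16.6 CPM. The log2FC values were 3.16 ± 0.24 for Sncg, 2.88 ± 0.24 for Ogn, 3.17 ± 0.19 for Aebp1 and 3.53 ± 0.39 for Mfrp (SE). Ryr1, a calcium release channel, was low throughout, with 1.12 to 5.66 CPM in HB and at most 1.62 CPM in MDT.

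Other genes higher in MDT were Dbndd1, a protein with a dysbindin domain, Cpne7, a copine that binds phospholipids with calcium, and Ppp1r17, an inhibitor of protein phosphatases. Dbndd1 had 17.5 to 34.6 CPM in HB and 44.4 to 92.4 CPM in MDT (log2FC -1.57 ± 0.17, SE, edgeR adjusted p = 0.00112). Cpne7 had 19.8 to 49.0 CPM in HB and 42.4 to 130.5 CPM in MDT, with overlapping groups, and Ppp1r17 had 0.37 to 3.01 CPM in HB and 4.60 to 8.72 CPM in MDT. Of 31 genes of oxidative phosphorylation, which make up the respiratory chain and its assembly factors, Ndufaf4 alone was called, higher in MDT (log2FC -0.84 ± 0.22, SE, edgeR adjusted p = 0.0515), and the median was -0.35. Ndufaf4 missed the threshold without replicate 1, 3 or 5, which left 0 of 31 called, and without replicate 4, 7 of 31 were called higher in MDT. None of 27 ribosomal protein names, taken as names that start with Rpl or Rps and a digit, was called. These also hold the kinase Rps6ka4 and pseudogene names such as Rpl32-ps1. Over all transcripts tested the called share was 11.7%, and neither this list nor the oxidative phosphorylation list was tested against it. The 2 monoamine genes tested (Th and Drd2) and the immediate early gene Fos were not called, and of 4 Wnt genes Tcf7l2 alone was.

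On the HB side, the largest differences belonged to transcripts with no name. ENSRNOT00000014219 had 135, 14, 297 and 163 reads in HB and 0, 0, 1 and 4 reads in MDT. ENSRNOT00000046503 had 151, 24, 54 and 177 reads in HB and 0, 0, 1 and 2 reads in MDT. The HB libraries lay above the MDT libraries for both, at 3.53 to 19.4 CPM against at most 0.14 CPM. On the MDT side, ENSRNOT00000015944 had 0.89 to 3.74 CPM in HB and 10.7 to 49.3 CPM in MDT, a 15.4-fold difference. ENSRNOT00000058314 had 4, 0, 3 and 4 reads in HB and 31, 7, 59 and 40 reads in MDT.

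Promoters are shown for the transporter genes of the cholinergic and glutamate lists, which differed in opposite directions, and for Tcf7l2, a factor whose motif was searched. The sequences are the 250 bases before the RefSeq start in the rat build GRCr8, written 5′ to 3′ on the strand of the gene, with motif matches in capitals. Slc5a7 lies on the minus strand at chr9:7953510-7953759, Slc17a6 on the plus strand at chr1:110348197-110348446, and Tcf7l2 on the plus strand at chr1:264791085-264791334.
Slc5a7: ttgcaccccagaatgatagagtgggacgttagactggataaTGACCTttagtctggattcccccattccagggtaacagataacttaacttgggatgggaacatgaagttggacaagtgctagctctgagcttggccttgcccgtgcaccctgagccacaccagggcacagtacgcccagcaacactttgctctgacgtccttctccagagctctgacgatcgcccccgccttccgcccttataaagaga
Slc17a6: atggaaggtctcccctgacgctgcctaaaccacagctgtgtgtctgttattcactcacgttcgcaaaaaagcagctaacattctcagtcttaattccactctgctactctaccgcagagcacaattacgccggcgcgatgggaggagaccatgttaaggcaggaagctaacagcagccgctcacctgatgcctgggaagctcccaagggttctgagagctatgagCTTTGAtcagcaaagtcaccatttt
Tcf7l2: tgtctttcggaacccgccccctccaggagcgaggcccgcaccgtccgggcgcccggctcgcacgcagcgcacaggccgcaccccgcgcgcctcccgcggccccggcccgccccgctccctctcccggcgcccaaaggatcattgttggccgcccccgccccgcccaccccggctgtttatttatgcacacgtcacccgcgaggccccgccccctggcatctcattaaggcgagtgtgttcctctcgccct
Searches on both strands used CTTTGA, the core bound by TCF and LEF factors such as Tcf7l2, and AGGTCA, the half-site bound by Rora and other nuclear receptors. Slc17a6 held a CTTTGA 25 bases before the start, Slc5a7 held an AGGTCA on the other strand (read as TGACCT) 209 bases before the start, and Tcf7l2 held neither. CTTTGA occurred in 13.8% of all 27457 promoters, in 5 of 79 promoters (6.33%) of named genes called higher in HB and in 9 of 91 (9.89%) of those called higher in MDT. Among 1197 promoters of named genes tested and not called the share was 11.4%. The shares for AGGTCA were 13.7% of all promoters, 15.2% and 11% of those called higher in HB and MDT, and 11% of those not called. A match describes letters in the window and does not show a bound site.

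The named genes were then placed among the 25 regions by their mean level in the 98 Sham libraries, normalised together, as a description with no test. The ranks used the Sham HB and MDT libraries that also gave the calls, so that the choice of genes favours high ranks. The same shares over all transcripts are not given here. Of 20 named genes called higher in HB, 5 had their highest mean in HB, and 12 had HB among the 3 highest. Of 23 called higher in MDT, 10 had their highest mean in MDT and 15 had MDT among the 3 highest. Some of these means were raised by MDT replicate 3, the highest MDT library for Cck, Grm4 and Hcn2. The MDT libraries ran from 68.5 to 2458 CPM for Cck (rank 2), from 5.53 to 73.2 CPM for Grm4 (rank 1) and from 10.2 to 70.8 CPM for Hcn2 (rank 3). The paraventricular nucleus of the thalamus (PVN in the study's abbreviations), a midline neighbour of the habenula, was among the 2 highest regions for 9 of the 20 HB-higher genes and 3 of the 23 MDT-higher genes.

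Gng8 was highest in HB (mean 231.6 CPM, range 70.7 to 489.5 over 4 libraries), and PVN followed with 170.4 CPM (97.7 to 285.5), so that these neighbours in the order overlapped. The next region, the lateral hypothalamus (LH), had 24.8 CPM with no library above 31.1, and thus lay apart from both. Slc5a7 was highest in PVN (97.4 CPM), then in the medial septum (MS, 55.4 CPM), HB (51.8 CPM) and the nucleus of the solitary tract (SNT, 49.5 CPM), and HB overlapped with each of them. The SNT libraries ran from 0 to 89.1 CPM and those of HB from 19.2 to 90.7 CPM. Necab2 had nearly equal means in HB (202.7 CPM), the lateral septum (LS, 197 CPM) and PVN (196 CPM).

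Tcf7l2 was highest in MDT (810.2 CPM, 470.6 to 1132), then in PVN (416.8 CPM, 345.8 to 491.8) and HB (313.2 CPM, 249.3 to 355.2). The ranges of neighbours in this order overlapped, while MDT did not overlap with HB, and the median over the 25 regions was 23.1 CPM. Rora stood apart in MDT, where the lowest library had 32.9 CPM and no library of LH, the region next in order, had more than 24.0 CPM. Slc17a6 was highest in MDT (438.2 CPM, 311.9 to 625.2), followed by PVN (293.4 CPM, 222 to 358.6), whose range overlapped with it, and HB was 8 in the order. Gabrd was highest in MDT (95.7 CPM) and next highest in the insular cortex (55.2 CPM).

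Ttr was highest in the locus coeruleus (LC, mean 28270 CPM), then in PVN (12250 CPM) and HB (9182 CPM), with ranges that overlapped between all 3. MDT had the rank 8. Kcnj13, Sostdc1 and Mfrp had the same 3 regions at the top, LC first for each. Igfbp2 (243.4 CPM), Ogn (42.7 CPM) and Aebp1 (68.0 CPM) had their highest mean in HB, yet each overlapped with the next region in order. Igfbp2 ran from 45.9 to 434.9 CPM in HB and from 44.7 to 372.2 CPM in LC. Ogn ran from 14.2 to 64.0 CPM in HB and from 17.7 to 50.3 CPM in the medial preoptic area. Aebp1 ran from 17.2 to 158.4 CPM in HB and from 4.50 to 61.4 CPM in the central medial amygdala.

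**Figure D4:**
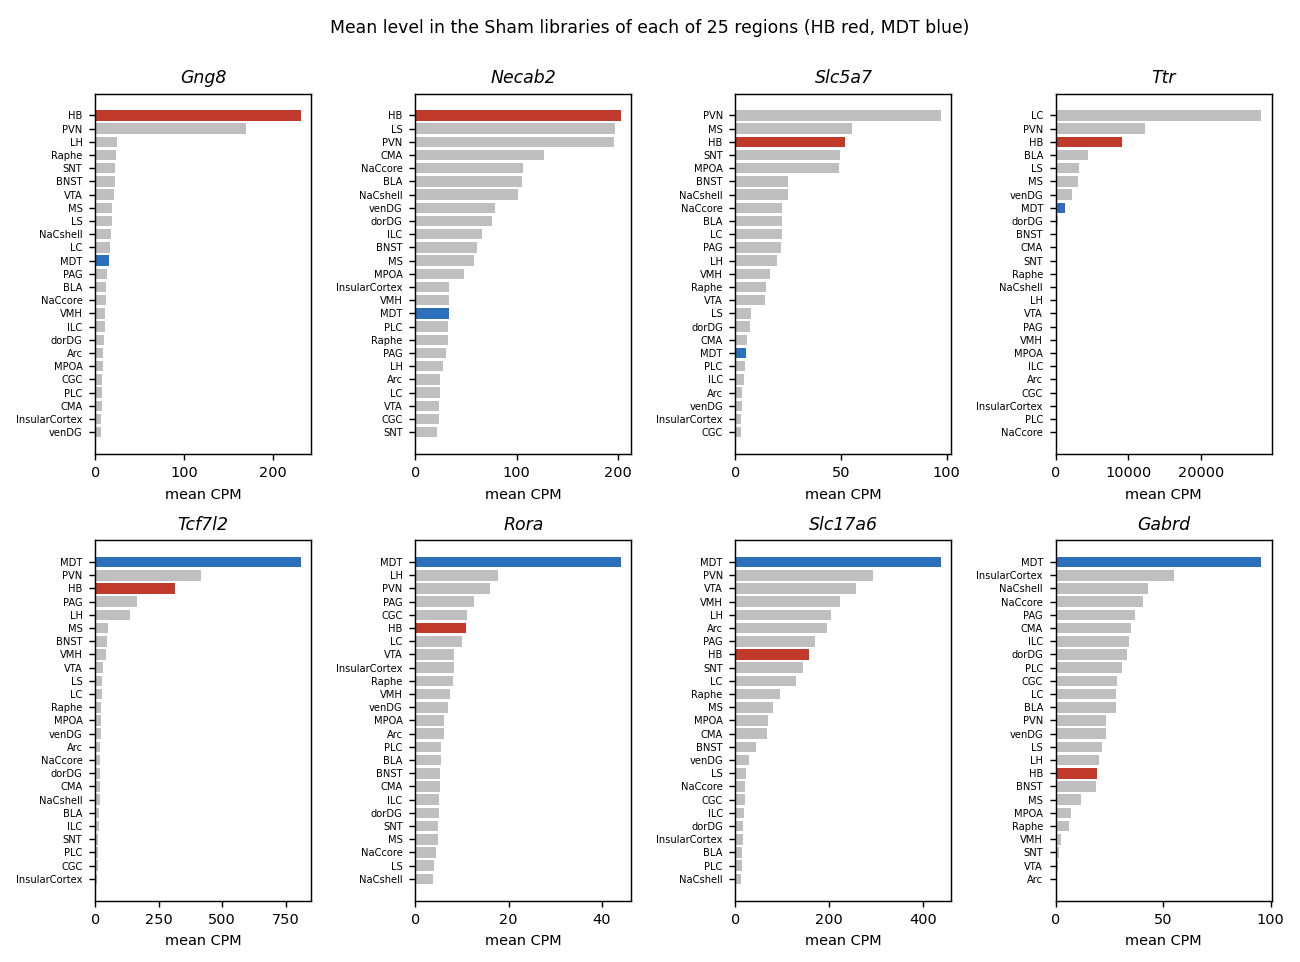
Mean CPM over the Sham libraries of each of 25 regions for 8 genes, ordered by level, with HB in red, MDT in blue and the other regions in grey under the labels' abbreviations. Gng8 and Necab2 are highest in HB, Tcf7l2, Rora, Slc17a6 and Gabrd are highest in MDT, and Slc5a7 and Ttr are highest in PVN and LC with HB in place 3.

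The same comparison in FT rats drew on pools of other animals. Of 13552 transcripts tested there, 3865 were called (28.5%), 1938 higher in HB (14.3%) and 1927 higher in MDT (14.2%). Of the 783 Sham HB-higher calls tested in both, 642 were also called higher in HB in FT, which is 82% of the Sham calls and 33.7% of the FT calls, and 1 was called the other way. Of the 757 MDT-higher calls, 588 were called again, which is 77.7% of the Sham calls and 30.6% of the FT calls, and none the other way. Libraries with the same replicate number were processed in parallel across treatments, so that the treatments share batches, though no libraries. The FT replicates 4 and 5 were more alike than other replicates of a group, with a chi-square of their counts over its degrees of freedom of 35.7 in HB and 44.2 in MDT, against 110.3 to 607 for other pairs. Their part in the FT counts was not tested. The larger count in FT was not tested against the Sham count.

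Of the 20 named HB-higher genes, 19 were also called in FT, the exception being Ryr1. Of the 23 MDT-higher genes, 18 were called again, and the others were Oxt, Avp (too few reads to be tested), Pvalb, Grin2c and Hcn2. Gng8 had 121.4 to 235.3 CPM in FT HB and 18.2 to 36.0 CPM in FT MDT (log2FC 2.74 ± 0.24, SE). Tcf7l2 had 228.2 to 413.2 CPM in FT HB and 550.5 to 1058 CPM in FT MDT, with a log2FC of -1.33 ± 0.18 (SE), beside the Sham value of -1.29. Of the medial habenula list, 5 of 5 members were called higher in HB in FT, and of the thalamic relay list 5 of 6 were called higher in MDT. The 4 choroid plexus members were again called higher in HB, with a median log2FC of 5.54. Of the 27 ribosomal protein names, 10 were called higher in HB in FT and 0 in Sham, with medians of 0.38 and -0.06. In FT, 3 of 7 oligodendrocyte members and 1 of 4 astrocyte members were called higher in MDT, 1 of 2 precursor members higher in HB, and of 3 microglia members 1 was called each way. Of 10 neuropeptide precursors tested in FT, 1 was called higher in HB and 3 higher in MDT, with a median of -0.04. Over all transcripts tested, 14.3% were called higher in HB and 14.2% higher in MDT in FT, against 6.18% and 5.54% in Sham. The differences between treatments in list counts were not tested.

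No transcript of 14905 was called in edgeR's test of the interaction of region and treatment (0%), with 798 at an unadjusted p under 0.05, and DESeq2 called 37. Among named genes Oxt was farthest apart, with 0.10, 51.8, 0.95 and 0.09 CPM in FT HB and 0, 7.70, 0.90 and 0.90 CPM in FT MDT. The high library was thus HB replicate 3 in FT and MDT replicate 3 in Sham, and the edgeR interaction had an adjusted p of 0.712. Pvalb had 68.6 to 170.2 CPM in FT HB and 74.3 to 171.8 CPM in FT MDT, a log2FC of 0.06 ± 0.16 (SE) against -1.11 in Sham (edgeR interaction adjusted p = 0.858). Ttr had 979.9, 2196, 6351 and 5046 CPM in FT HB and 19.8, 88.3, 59.3 and 24.5 CPM in FT MDT. No FT MDT library reached the level of Sham MDT replicates 1 and 3, and the FT log2FC was 6.19 ± 0.51 (SE) against 3.73 in Sham, again without passing the interaction test (edgeR adjusted p = 0.858).

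**Figure D5:**
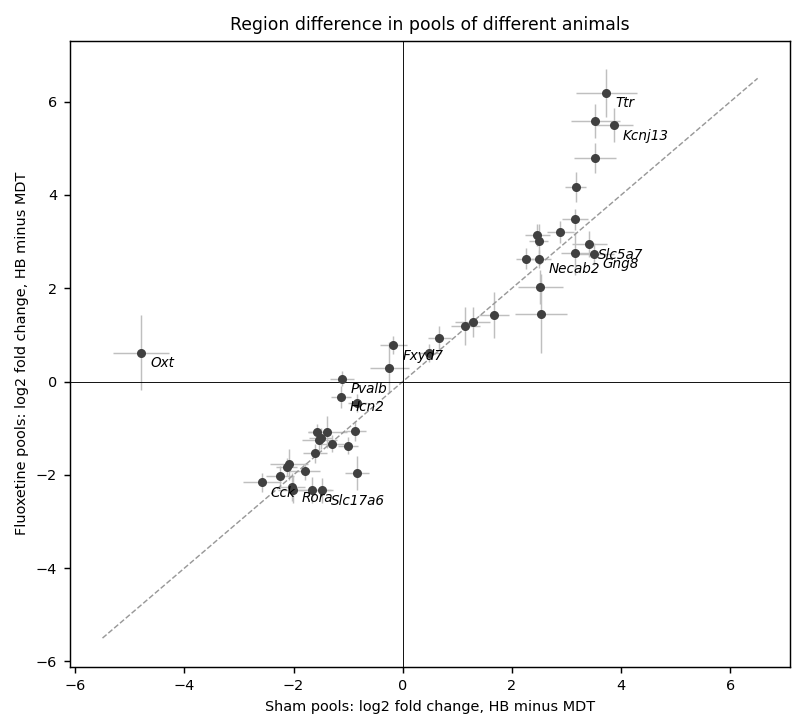
The log2FC (HB minus MDT) of 45 named genes in the Sham pools (x axis) and in the FT pools of other animals (y axis), with bars of 1 SE and a dashed line at equal values. Most genes lie near the line, Ttr and Kcnj13 lie above it, and Oxt, at -4.79 in Sham and 0.62 in FT, is the farthest from it.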

How the data were processed

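Per the labels and the study's methods, the authors made total RNA libraries (the labels also name polyA RNA), aligned reads to rn5 with STAR and counted them with HTSeq; tool versions are not given in the sources used here. The deposited files hold raw counts for 29188 Ensembl transcripts, with no normalization, and end with reads outside features, ambiguous between features or not unique, which were left out. Reads shared by overlapping transcripts were thus not counted. Members and gene lists were chosen with earlier results of these data known.

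Sham HB and MDT counts were fitted in edgeR 4.0.16 (R 4.3.3) with TMM factors, filterByExpr (minimum count 10, minimum total 15), a block for replicate number and quasi-likelihood testing. A call needed an absolute log2FC of 0.32 and a Benjamini-Hochberg adjusted p of 0.1. The SE is the absolute log2FC over the square root of F. FT libraries were fitted alike, and the interaction with a block for each pool. The block was kept because deviations from group means correlated at 0.594 to 0.795 between the HB and MDT libraries of a number, and at -0.597 to 0.457 between numbers. No replicates of a group agreed within sampling noise, though FT replicates 4 and 5 were the most alike. One listed gene is not reported here. The code was tested on simulated data. Depth limits precision for transcripts with few reads.

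Named genes were the tested members of the habenula and thalamic relay lists, the 15 largest named calls in each direction with a mean of at least 1 CPM and 4 pairs alike, up to 3 called members of each other list, Slc17a6, and the 2 largest calls each way without a name. Gal, Gabrb1, Chrnb2, Wfs1 and Kcnab1 are list members given beyond that rule, with values seen. Names came from a supplementary table and were put in RefSeq case (1678 are RefSeq symbols); promoters came from RefSeq GRCr8, and none was printed for genes not in that table. Alternatives were DESeq2 1.42.0, no block, median-ratio size factors, no low-count filter, stricter limits, all 16 libraries in 1 fit and each replicate left out. Python 3.11.15, pandas 2.3.3 and matplotlib 3.10.9 were used.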

Additional observations from a re-analysis of the deposited data

Results flagged for a closer look

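A library of a named gene was picked out by its gap to the nearest of the other 3 libraries of its group. The gap had to take up more of the group's whole range than Dixon's 95% critical value allows. Chance gives this in about 1 of 20 groups of normally distributed values, and the CPM values were not checked for that. The search covered HB and MDT for each of 50 named genes and transcripts. Of the 15 values picked out, 11 belonged to replicate 3, the number with the lowest depth and the highest share of counts in the 50 most abundant transcripts. In MDT replicate 3 these were Oxt at 104.6 CPM, Cck at 2567 CPM, Avp at 15.3 CPM, Fxyd7 at 80.5 CPM, Grm4 at 76.4 CPM, Sncg at 26.0 CPM and Tekt1 at 7.83 CPM. In HB replicate 3 they were Oxt at 1.87 CPM, Cck at 168.3 CPM, Avp at 5.61 CPM and Cartpt at 46.4 CPM. Each was the highest library of its group. Oxt, Cck and Avp stood out in both regions of replicate 3. Of the remaining values, MDT replicate 4 was low for Pde2a (13.9 CPM) and Hpca (1.65 CPM), MDT replicate 1 was high for Kcnj13 (7.86 CPM), and HB replicate 4 was high for ENSRNOT00000014219 (19.4 CPM).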

How the results depend on the processing

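Sham calls numbered 852 higher in HB and 764 higher in MDT. Without the replicate block they fell to 92 and 28, and FT calls to 209 and 122 (from 1938 and 1927). Without the low-count filter 1397 were higher in HB, and at an adjusted p of 0.05 with an absolute log2FC of 1 the counts were 502 and 214. With a replicate left out, Sham calls ranged from 363 to 1217 in HB and from 198 to 1490 in MDT, and the FT calls from 1154 to 1696 and from 880 to 1759. Without replicate 4 the MDT-higher count was 1490, and without replicates 1, 3 and 5 the counts were 363 and 259, 440 and 198, and 497 and 315. Without replicate 4 the FT HB-higher count was 1154, and without replicate 3 the FT MDT-higher count was 880. The interaction gave 0 calls in edgeR, 37 with DESeq2 and 0 to 2 with a replicate left out. The causes were not tested, and each fit with a replicate left out also held fewer libraries. DESeq2 called 1591 of the 1616 Sham transcripts and median-ratio factors 1604. All 47 called named genes and transcripts remained called with DESeq2, median-ratio factors and no filter, 13 without the block, and 39, 37, 46 and 39 without replicates 1, 3, 4 and 5. No called one changed sign under any alternative. Uncalled values changed sign for Fxyd7 (0.087 without replicate 3, and from -0.39 to 0.087 with a replicate left out) and Cartpt (0.078 without the block, 0.16 without replicate 5, and from -0.61 to 0.16 with a replicate left out). Kcng4 was called without replicate 4. The median of all log2FC values was 0.03, 0.01 with median-ratio factors and 0.11 with DESeq2. Few reads limit the precision of Oxt, Avp, Ryr1, Ppp1r17, Kctd8 and Necab1, among others.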
